A study of Homo sapiens with 4 samples.

Results

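The trefoil factor genes TFF1, TFF2 and TFF3 were followed in the human breast cancer line MDA-MB-231 after MGH-CP1 or vehicle. Members were the rows of the deposited expression table with 1 of these symbols, 3 of 48162 genes, each present once. They were selected on their FPKM difference between MGH-CP1 and vehicle in these same libraries, so their own differences are given as a description without a test. Poly-T selected mRNA was sequenced in 2 libraries from cells under vehicle control and 2 from cells given MGH-CP1 for 24 h. The sample labels give the MGH-CP1 dose as 10 µM, whereas the methods of the study say 10 mM. All 4 libraries came from this single line, nothing in the sources used here says whether replicates were separate cultures, so that p-values measure only the spread between these samples, which may be technical. MGH-CP1 occupies the lipid pocket of TEAD transcription factors and blocks their palmitoylation.

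Trefoil factors are small secreted peptides of mucous epithelia. Each carries one or more trefoil domains, compact loops held together by disulfide bonds between cysteines. The peptides are released together with mucins, the gel-forming glycoproteins of mucus, and are known for helping a damaged epithelium to close. TFF1 is best known in the breast as an estrogen-induced gene, TFF2 in the mucous neck and gland cells of the stomach, and TFF3 in the goblet cells of the intestine.

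The coding sequences are shown first because they identify the members and show how alike they are. In the transcripts of GENCODE release 29 (GRCh38), TFF1 has 84 codons and 1 trefoil domain, TFF2 has 129 codons and 2 domains, and TFF3 has 94 codons and 1 domain. The stretches below run from the first to the sixth cysteine codon of each domain, 5′ to 3′ in the coding direction, with cysteine codons in capitals. All lie on the minus strand of chromosome 21.
TFF1 domain (exon 2, chr21:42363289-42363402): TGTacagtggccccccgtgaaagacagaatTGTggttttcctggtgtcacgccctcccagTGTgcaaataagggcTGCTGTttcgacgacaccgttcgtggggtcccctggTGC
TFF2 domain 1 (exon 2, chr21:42349903-42350019): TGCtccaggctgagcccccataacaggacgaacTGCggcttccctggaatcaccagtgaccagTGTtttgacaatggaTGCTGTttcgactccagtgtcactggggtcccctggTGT
TFF2 domain 2 (exon 3, chr21:42347508-42347621): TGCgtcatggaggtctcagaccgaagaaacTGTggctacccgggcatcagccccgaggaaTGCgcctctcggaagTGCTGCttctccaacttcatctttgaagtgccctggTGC
TFF3 domain (exon 2, chr21:42313507-42313620): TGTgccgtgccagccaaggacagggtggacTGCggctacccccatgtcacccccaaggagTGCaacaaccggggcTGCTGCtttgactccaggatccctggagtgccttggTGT
The cysteine spacing was shared: 9 codons lay between the second and the third cysteine, 4 between the third and the fourth, and 10 between the fifth and the sixth in all of the domains. Between the first and the second cysteine, the first TFF2 domain had 10 codons and the other domains 9.
Despite this common layout the nucleotides differed. Over the 84 bases from the second to the sixth cysteine codon, the domains were 53.6% to 69% identical, with the closest pair being TFF1 and the first TFF2 domain. The longest exact run shared by any transcripts of 2 members was 15 bases, between TFF1 and TFF2, where the reads were 150 bases long. Assignment of reads between the members was not tested.

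In the deposited table the members lie side by side on the minus strand of chromosome 21, with hg19 named as the build in the submitters' processing notes. TFF3 (ENSG00000160180) spans chr21:43731777-43735761, TFF2 (ENSG00000160181) chr21:43766466-43771237 and TFF1 (ENSG00000160182) chr21:43782391-43786703. A gap of 30704 bases separates TFF3 from TFF2, and 11153 bases separate TFF2 from TFF1. No listed gene lies in these gaps or overlaps a member. The gene lengths listed by the authors, 1109 bases for TFF3, 737 for TFF2 and 551 for TFF1, equal those of the GENCODE transcripts used above.

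The authors deposited FPKM, fragments scaled to the length of the gene and the size of the library. Because every value was a whole multiple of 1 fragment (within 0.01 of a whole number for 100% of values), the fragments behind each value could be recovered. On the listed genes, the vehicle control libraries held 25455533 and 25508824 fragments and the MGH-CP1 libraries 17997221 and 17577930. Of 10 markers fixed for MDA-MB-231, 9 passed the filter, with VIM (vimentin) between 259 and 281 FPKM. SPARC, the exception, had 5 to 11 fragments. Of 8 markers fixed for luminal or HER2 breast lines, 4 also passed, namely ERBB2 (24.7 to 28.4 FPKM), EPCAM (12.4 to 16.4), GATA3 (4.17 to 5.65) and AGR2 (3.53 to 19.1). The other 4 did not, with the estrogen receptor gene ESR1 at no more than 4 fragments in any library, the progesterone receptor gene PGR at 1, the luminal factor FOXA1 at 2 and the cadherin gene CDH1 at 56.

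Each trefoil gene stood higher after MGH-CP1 in either library than in any vehicle control library. TFF2 went from about 3 to about 29 FPKM, TFF1 from about 1 to about 6 and TFF3 from under 1 to about 1.5. Both MGH-CP1 libraries lay above both vehicle control libraries for 39.8% of the 12080 genes whose FPKM averaged 1 or more (below them for 37.4%), and for 30.4% of the 24878 genes with any fragment. The separation alone is therefore common, and nothing is read from it.

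TFF2 was listed at 3.04 and 3.78 FPKM in vehicle control replicates 1 and 2 and at 29.6 and 27.9 FPKM in MGH-CP1 replicates 1 and 2. The vehicle control libraries were low, the MGH-CP1 libraries high, and no value lay in between. These levels rest on 57 and 71 fragments under vehicle and on 392 and 361 after MGH-CP1, although the MGH-CP1 libraries had fewer fragments on listed genes. The group means were 3.41 ± 0.522 FPKM (SD, n = 2) and 28.7 ± 1.19 FPKM (SD, n = 2), a ratio of 8.43. With fragments summed within each condition, the 95% counting interval of that ratio ran from 6.98 to 10.2. Such intervals cover counting error only. The difference was 2.76 on the log2(FPKM + 1) scale, rank 1 of the 12080 genes past the filter. Within each vehicle control library TFF2 stood above 20.6% and 24.8% of these genes, and within the MGH-CP1 libraries above 80% and 78.7%.

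TFF1 was listed at 1.57 and 1.21 FPKM under vehicle and at 6.66 and 5.68 FPKM after MGH-CP1. Here too the conditions did not overlap, and the gap between them was wider than the distance between replicates. The fragments were 22 and 17 under vehicle and 66 and 55 after MGH-CP1. Means were 1.39 ± 0.254 FPKM (SD, n = 2) and 6.17 ± 0.691 FPKM (SD, n = 2), a ratio of 4.44 with a counting interval from 3.08 to 6.55. Its difference of 1.59 on the log2(FPKM + 1) scale took rank 29 among the genes past the filter.

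TFF3 was the lowest member, at 0.496 and 0.389 FPKM under vehicle and 1.55 and 1.44 FPKM after MGH-CP1. Its mean over the 4 libraries was 0.969 FPKM, just below the minimum of 1, so it entered no fit, whereas TFF1 and TFF2 passed. The replicates of each condition were again closer to one another than to the other condition. Its fragments were few: 14 (exact Poisson interval 7.65 to 23.5) and 11 (5.49 to 19.7) under vehicle, and 31 (21.1 to 44) and 28 (18.6 to 40.5) after MGH-CP1. The ratio of mean FPKM was 3.38 with a counting interval from 2.08 to 5.63. On the log2(FPKM + 1) scale the difference was 0.79, which the pseudocount shrinks because the levels are near 1.

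**Figure D1:**
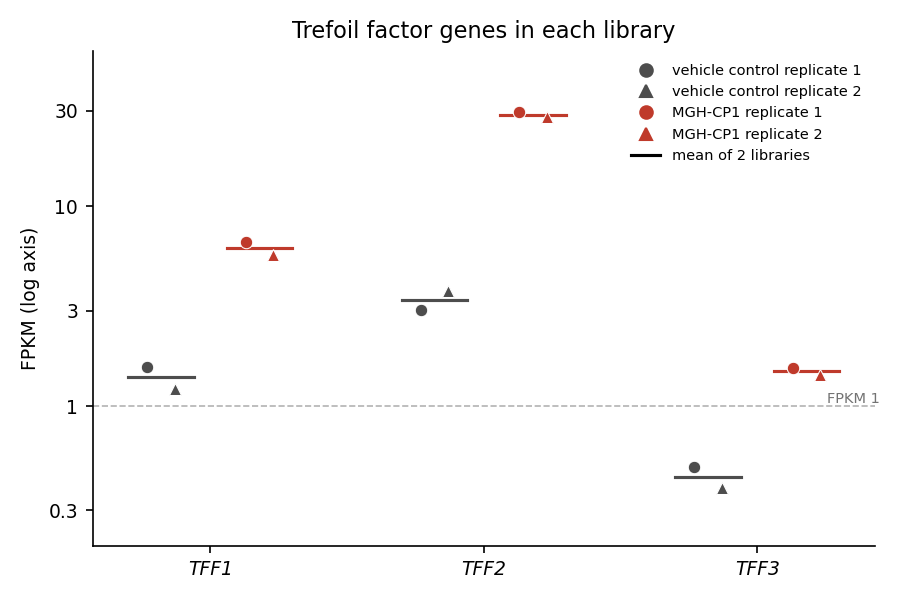
FPKM (log axis) of TFF1, TFF2 and TFF3 in each of the 4 libraries, with vehicle control in grey, MGH-CP1 in red, circles for replicate 1, triangles for replicate 2 and a bar at the mean of 2 libraries; the dashed line marks an FPKM of 1. TFF2 sits at 3.04 and 3.78 under vehicle and at 29.6 and 27.9 after MGH-CP1, and TFF3 crosses the dashed line only after MGH-CP1.

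The order of the levels, compared per length, was TFF2 above TFF1 above TFF3 in all 4 libraries. In each condition the lowest library of the higher gene lay above the highest library of the next, so that neighbours in this order were separated by more than their spread. TFF2 made up 59.5% and 70.3% of the summed trefoil FPKM under vehicle and 78.3% and 79.7% after MGH-CP1. The sum itself went from 5.1 and 5.37 FPKM to 37.8 and 35 FPKM. The TFF2 level was 1.94 and 3.12 times that of TFF1 in the vehicle control libraries, and 4.44 and 4.91 times in the MGH-CP1 libraries.

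The members also differed in how far they moved. The ratio of TFF2, over the 4 pairings of libraries across conditions, lay between 7.38 and 9.73, above that of TFF1 (3.62 to 5.5) and that of TFF3 (2.9 to 3.99). The counting interval of TFF2 lay wholly above those of the other members, while those of TFF1 and TFF3 overlapped. These intervals leave out the spread between replicates, and the members were selected on this same difference. The order of the ratios is thus a description and not a test. A ratio of at least 3 was seen in 125 of the 12080 genes past the filter (1.03%). In bulk RNA a higher level per cell and more cells with the transcript cannot be told apart.

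**Figure D2:**
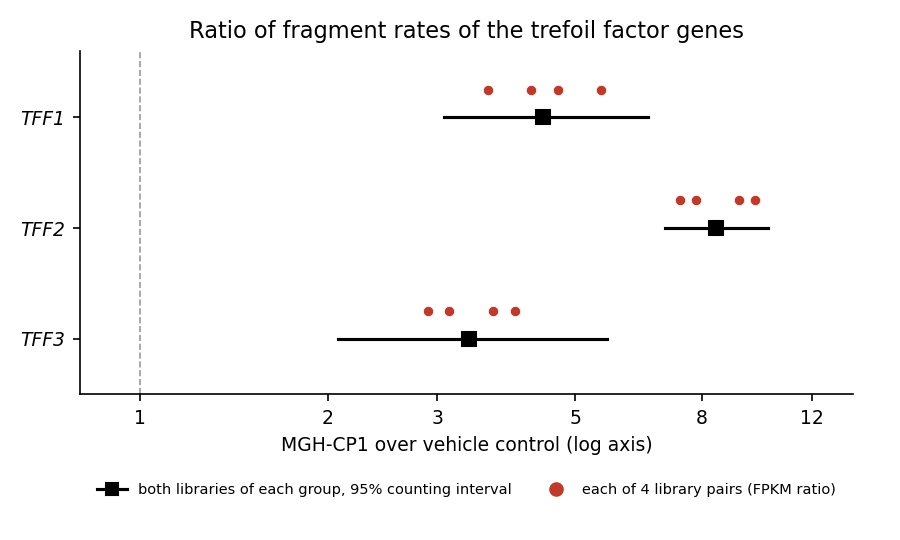
Ratio of MGH-CP1 to vehicle control on a log axis for each trefoil gene. Black squares give the ratio with both libraries of each group summed and the line its 95% counting interval, red points the FPKM ratio of each of the 4 library pairs; all points lie right of 1, and the TFF2 interval, from 6.98 to 10.2, lies right of the other intervals.

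The genes around the cluster were compared next, by position and not by their values. Within 1 Mb of the trefoil genes the table lists 47 other genes, of which 13 passed the filter and 18 had no fragment in any library. The 13 were tested in a limma fit of log2(FPKM + 1) across all 12080 genes, with Benjamini-Hochberg adjustment and a threshold of 0.05. Of them 5 were called higher, 4 lower and 4 neither, where 27.1% of all tested genes were called higher and 23.8% lower. Their median log2 fold change was 0.086 against 0.014 over all genes tested. Without variance shared between genes, limma called 0 of them in either direction, and 13 genes of the whole table.

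ABCG1, which exports cholesterol from cells, is the nearest gene on the TFF3 side, 14.4 kb away on the plus strand (ENSG00000160179, chr21:43619799-43717354). It was listed at 2.57 and 2.67 FPKM under vehicle and at 11.9 and 9.9 FPKM after MGH-CP1, from 227, 237, 744 and 605 fragments. Both MGH-CP1 libraries thus stood well above the vehicle control libraries, as for the trefoil genes next to it. The means were 2.62 ± 0.076 and 10.9 ± 1.41 FPKM (SD, n = 2 each), a ratio of 4.16. The limma estimate was 1.71 ± 0.097 (standard error) on the log2 scale with an adjusted p of 1.98e-05, the largest difference of the 13 neighbours tested. Beyond ABCG1 on the same side, UMODL1 and C21orf128 had no fragment in any library, and ZNF295-AS1 had at most 3. ZBTB21, a zinc finger repressor and the fifth gene on that side, fell by 0.31 on the log2 scale (adjusted p = 0.0134 from limma).

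On the TFF1 side the 4 nearest genes had few or no fragments. TMPRSS3, a membrane serine protease gene only 5.29 kb beyond TFF1, had 3 and 10 fragments under vehicle and 4 and 5 after MGH-CP1. UBASH3A, a regulator of T cell signalling, had 3 fragments in vehicle control replicate 2 and 0 in the other libraries. RSPH1, a gene of motile cilia, had 0 and 1 fragments under vehicle and 4 and 6 after MGH-CP1, too few for a ratio to be read. It overlaps SLC37A1 on the opposite strand. The next gene, AP001625.4, had at most 2 fragments in a library. SLC37A1, a sugar-phosphate transporter of the endoplasmic reticulum and the first gene past the filter on that side, was listed at 3.79 and 4.14 FPKM under vehicle and 4.12 and 4.41 after MGH-CP1. Its libraries overlapped, and limma gave 0.09 ± 0.088 (standard error) on the log2 scale with an adjusted p of 0.44.

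Farther out on the TFF3 side, RIPK4, a kinase of epithelial differentiation, rose by 0.36 on the log2 scale (adjusted p = 0.0026 from limma). There the interferon-induced gene MX1 rose by 0.45, the serine protease gene TMPRSS2 by 0.45 (limma, adjusted p = 0.00729 and 0.0129) and the zinc finger gene PRDM15 by 0.32 (adjusted p = 0.0249 from limma). The calls of TMPRSS2 and PRDM15 were lost when 1 library was left out, the first without vehicle control replicate 2 or MGH-CP1 replicate 2 (adjusted p = 0.0625 and 0.0613 from limma), the second without any of the 4 (adjusted p from 0.0539 to 0.109 in limma); that of ZBTB21 was lost without vehicle control replicate 1 or MGH-CP1 replicate 1 (adjusted p = 0.065 and 0.0506 in limma). C2CD2 and MX2, also on the TFF3 side, passed the filter without a call, at -0.01 and 0.32 on the log2 scale. On the TFF1 side the methyltransferase subunit gene WDR4 fell by 0.46, PKNOX1, a homeobox factor, by 0.41 and the splicing factor gene U2AF1 by 0.28 (limma, adjusted p = 0.00767, 0.00758 and 0.00417). NDUFV3, a subunit of respiratory complex I, had a log2 fold change of -0.13 (adjusted p = 0.137 from limma). With no filter on low values the calls of MX1, TMPRSS2, PRDM15, WDR4 and PKNOX1 were lost (limma, adjusted p from 0.0534 to 0.0899). Split by side after the values were seen, 5 of the 8 tested neighbours on the TFF3 side were called higher (62.5%) and 1 lower (12.5%). Of the 5 on the TFF1 side 0 were called higher and 3 lower (60%). Over all genes tested 27.1% were called higher and 23.8% lower. With so few genes, nothing is read from this split.

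**Figure D3:**
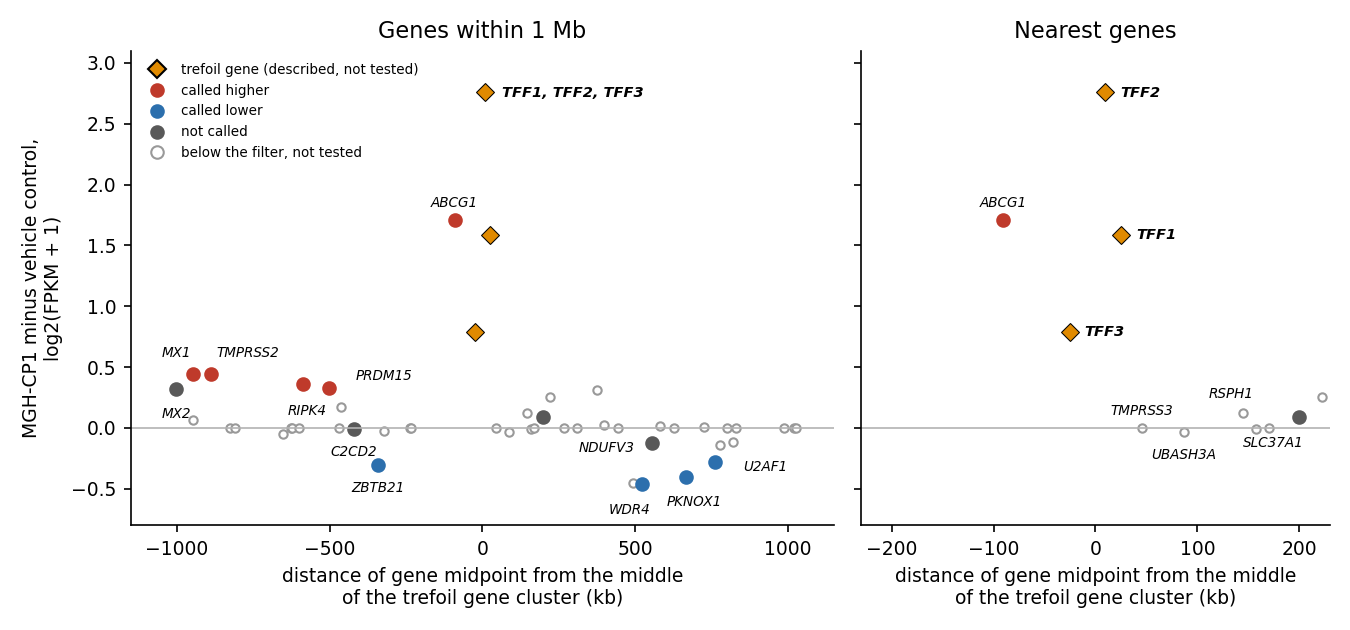
Difference between MGH-CP1 and vehicle control, on the log2(FPKM + 1) scale, of the genes within 1 Mb of the trefoil genes (left) and of the nearest genes (right), against the distance of the gene's midpoint from the middle of the cluster in kb; negative distances are the TFF3 side. Diamonds are the trefoil genes, filled circles tested neighbours by call and open circles neighbours below the filter. ABCG1 at 1.71 stands with the trefoil genes, and all other neighbours tested lie between -0.46 and 0.45.

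Genes tied to the trefoil peptides by function were taken from 6 fixed lists, which hold 118 genes of the table. Of these 50 passed the filter, 21 were called higher and 9 lower in the same limma fit, or 42% and 18%, beside 27.1% and 23.8% of all genes tested. Their median log2 fold change was 0.08, and the lists were written with the rise of TFF2 already known.

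The secreted mucins that trefoil peptides accompany were nearly silent. MUC5AC, the partner of TFF1 in gastric mucus, had 2 and 2 fragments under vehicle and 1 and 4 after MGH-CP1. MUC6, which TFF2 accompanies, had 9 and 13 and then 6 and 6. MUC2, the goblet cell mucin stored with TFF3, had 0 in every library, which allows up to 3 fragments in each. Of the 20 mucin genes 2 passed the filter. The membrane mucin gene MUC1 was listed at 7.4 and 7.19 FPKM under vehicle and 17.3 and 14.7 after MGH-CP1. It rose by 1.03 ± 0.084 (standard error) in log2 terms, with an adjusted p of 6.3e-05 from limma. Part of MUC1 overlaps KRTCAP2 on the same strand, which changed by 0.22. MCAM, an adhesion molecule also counted among the mucins as MUC18, fell by 0.26 (adjusted p = 0.0128 from limma), a call lost without vehicle control replicate 2 or either MGH-CP1 library (limma, adjusted p from 0.0503 to 0.0688).

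Among 15 binding partners and candidate receptors, 6 passed the filter. Of these 1 was called higher (16.7%, beside 27.1% of all genes tested) and 2 lower (33.3%, beside 23.8%). CXCR4, a chemokine receptor reported to respond to TFF2, was listed at 15.5 and 13.4 FPKM under vehicle and 6.6 and 7.87 after MGH-CP1. Its conditions did not overlap, and limma gave -0.91 ± 0.096 (standard error) on the log2 scale with an adjusted p of 1.93e-04. The related receptor gene ACKR3, listed under its older symbol CXCR7, rose by 0.39 (adjusted p = 0.0143 from limma), a call lost without vehicle control replicate 2 or MGH-CP1 replicate 1 (adjusted p = 0.0843 and 0.0554 in limma). EGFR, the epidermal growth factor receptor gene, fell by 0.46 (adjusted p = 2.19e-04 from limma). F2RL1, the gene of a protease-activated receptor, ITGB1 and DMBT1 passed the filter with no call, and LINGO2, a reported TFF3 receptor gene, had no fragment in any library. GAA, the lysosomal alpha-glucosidase gene, was the only 1 of 5 other trefoil-domain genes in the table to pass, at 14.4 and 14.7 FPKM under vehicle and 20.3 and 20.4 after MGH-CP1. It rose by 0.46 in log2 terms, with an adjusted p of 3.74e-04 from limma, and MGAM, SI, ZP1 and ZP4 stayed below the filter.

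Of 38 transcription factors reported to act on trefoil gene promoters, 24 passed the filter. Of these 9 were called higher (37.5%, beside 27.1% of all genes tested), 3 lower (12.5%, beside 23.8%) and 12 neither. Their median log2 fold change was 0.11. SPDEF, a factor of goblet cell differentiation, was listed at 19.4 and 18.9 FPKM under vehicle and at 34.3 and 33.6 after MGH-CP1. It moved furthest of this list, by 0.80 ± 0.052 (standard error) in log2 terms, with an adjusted p of 3e-05 from limma. FOXA2, a forkhead factor of endodermal epithelia, rose by 0.56 and USF1, an E-box factor, by 0.53 (limma, adjusted p = 4.54e-04 and 4.95e-04). HIF1A, the oxygen-regulated factor that can induce trefoil genes, rose by 0.30 (adjusted p = 0.00545 from limma). EGR1, an immediate-early factor, had a log2 fold change of -0.11 and GATA3, a luminal factor, of -0.21 (limma, adjusted p = 0.411 and 0.092), and neither was called.

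The estrogen-responsive and luminal list, to which TFF1 is usually counted, moved in both directions. Of its 25 genes 15 passed the filter, with a median log2 fold change of 0.063. Of these 6 were called higher (40%, beside 27.1% of all genes tested), 3 lower (20%, beside 23.8%) and 6 neither. ESR1 itself had 4 and 0 fragments under vehicle and 0 and 2 after MGH-CP1, and PGR and GREB1, classical receptor targets, were below the filter. The members that rose most were AGR2, a disulfide isomerase of secretory cells, at 1.85, CA12, a carbonic anhydrase gene, at 1.40, and the keratin gene KRT19 at 0.84 (limma, adjusted p = 3.98e-05, 7.97e-06 and 1.98e-05). KRT18, another keratin gene of simple epithelia, fell by 0.35 (adjusted p = 9.26e-04 from limma). It overlaps the more abundant keratin gene KRT8 on the opposite strand, so that reads could have been shared. KRT8 fell by 0.18 (adjusted p = 0.0138 from limma), a call lost with no filter on low values. Of the 4 tested markers of luminal or HER2 breast lines, AGR2 was called higher and the other 3 were not called. The 8 markers summed to 46.6 and 48.3 FPKM under vehicle and 66.6 and 61.2 after MGH-CP1, and without AGR2 to 42.6 and 44.8 and then 47.5 and 47.4. Of the 9 tested markers of MDA-MB-231 itself, 1 was called higher (11.1%, beside 27.1% of all genes tested) and 4 lower (44.4%, beside 23.8%). Among them AXL, a receptor kinase gene, fell by 0.76 and FOSL1, a factor of the AP-1 family, by 0.62. The 10 markers summed to 1905 and 1908 FPKM under vehicle and to 1539 and 1597 after MGH-CP1. The part of these markers in the trefoil values was not tested.

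All 4 tested genes of the list for the secretory epithelium of stomach and gut were called higher, beside 27.1% of all genes tested. Each also had a mean FPKM above 1 under vehicle alone. They are 4 of the 24 genes of a list written with the rise of TFF2 already known. One of them, AGR2, is also in the luminal list. AGR2 was listed at 4.07 and 3.53 FPKM under vehicle and at 19.1 and 13.9 after MGH-CP1, a ratio of mean FPKM of 4.34. SPINK4, a goblet cell peptide gene, was listed at 8.84 and 11.1 FPKM under vehicle and 38.1 and 27.6 after MGH-CP1. Both genes were high in both MGH-CP1 libraries and more so in replicate 1. SPINK4 rose by 1.62 ± 0.15 (standard error) in log2 terms, with an adjusted p of 9.61e-05 from limma. It overlaps BAG1 on the opposite strand, which rose by 0.54 (adjusted p = 3.14e-04 from limma), and strand use in the counting is not given in the sources used here. The gastric annexin gene ANXA10 rose by 0.61 from 42 and 52 to 72 and 55 fragments, and TSPAN8, a tetraspanin gene, by 0.80 from 43 and 90 to 110 and 86 (limma, adjusted p = 0.00547 and 0.0113). Without MGH-CP1 replicate 1 the call of TSPAN8 was lost (adjusted p = 0.0698 in limma). With no filter on low values the calls of TSPAN8, ANXA10, MCAM, CXCR7 and HIF1A were lost (limma, adjusted p from 0.0706 to 0.145).

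The whole secretory list summed to 16.3 and 19.4 FPKM under vehicle and to 67.4 and 49.9 after MGH-CP1, most of it from SPINK4 and AGR2. Of its 24 genes 20 were below the filter. Among the 12 of these with fragments, both MGH-CP1 libraries lay above both vehicle control libraries for 6 (FCGBP, LYZ, VSIG1, PSCA, GKN2 and LGALS4) and below them for 1 (CLDN18). Over all 12798 genes below the filter with fragments, these shares were 21.6% and 11.2%. The last 3 of the 6 had at most 4 fragments in a library. The 8 genes at 0 in every library were MUC2, CLCA1, REG4, ZG16 and CDX2, known from intestinal epithelium, and GIF, ATP4A and ATP4B of acid-secreting gastric cells.

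**Figure D4:**
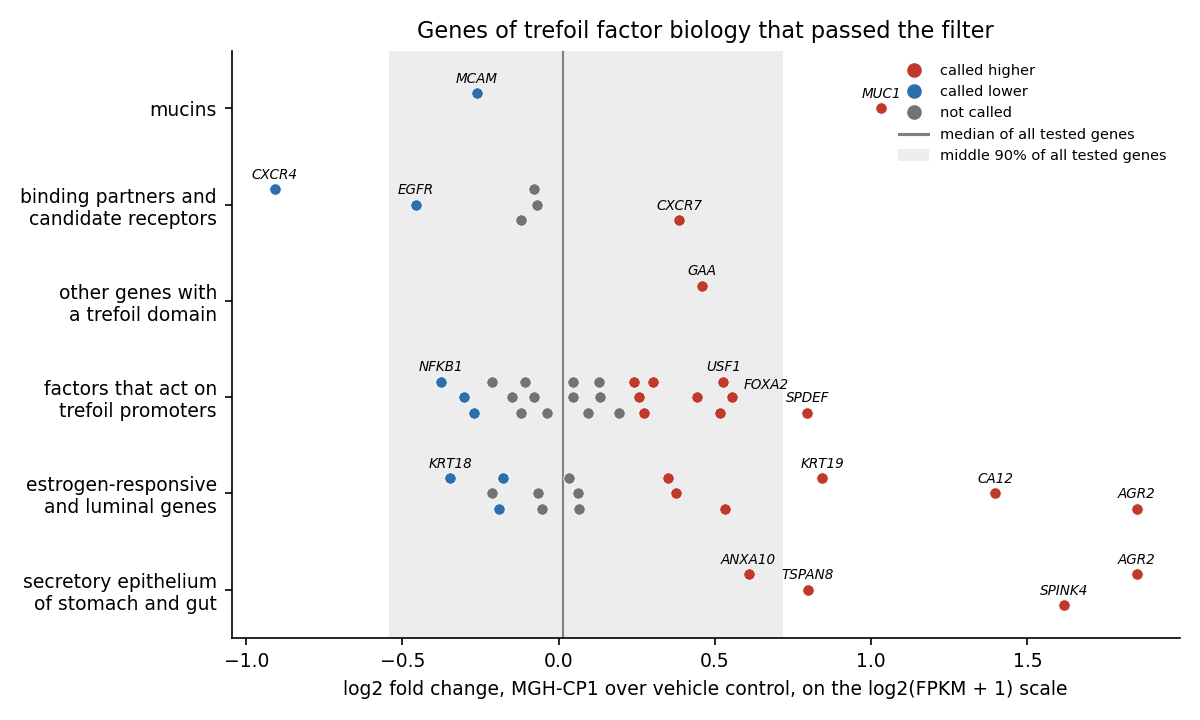
Log2 fold change (MGH-CP1 over vehicle control, on the log2(FPKM + 1) scale) of each gene past the filter in the 6 lists, red where called higher, blue where called lower and grey where not called; vertical offsets within a list only separate the points. The line marks the median of all tested genes (0.014) and the band their middle 90%, from -0.54 to 0.71; AGR2, SPINK4, CA12, MUC1, KRT19, TSPAN8 and SPDEF lie right of the band and CXCR4 left of it.

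**Figure D5:**
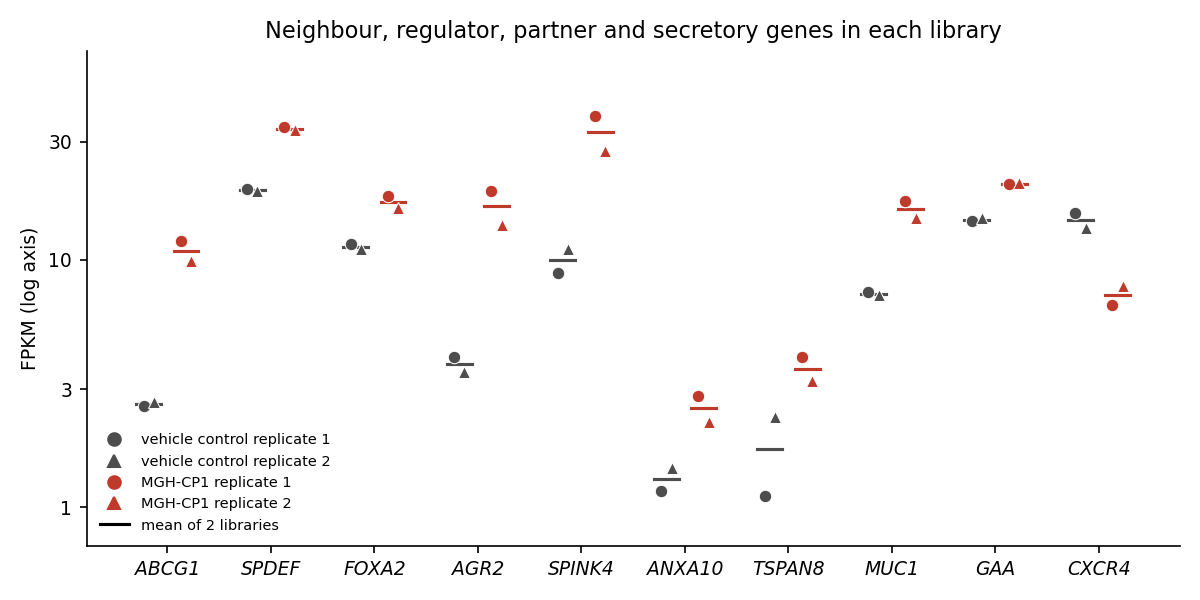
FPKM (log axis) of 10 of the genes named above in each library, with vehicle control in grey, MGH-CP1 in red, circles for replicate 1, triangles for replicate 2 and a bar at the mean of 2 libraries. The MGH-CP1 libraries lie above the vehicle control libraries for all genes shown except CXCR4, whose 6.6 and 7.87 FPKM lie below 15.5 and 13.4.

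The genes whose profile over the 4 libraries was nearest to that of a member were listed by Euclidean distance between centred log2(FPKM + 1) values. Nearest to TFF2 were NOX5, a calcium-regulated NADPH oxidase gene (distance 0.451), the nuclear long noncoding RNA NEAT1 (0.52), and the mitochondrial genes MT-CO2 (0.598), MT-ND6 (0.621) and MT-ND4L (0.646). The 13 mitochondrial genes held 0.447% and 0.418% of fragments under vehicle and 1.57% and 1.53% after MGH-CP1. Rescaled to the fragments on nuclear genes, a choice made after the data were seen, the difference of TFF2 was 2.77 on the log2(FPKM + 1) scale. No gene past the filter had a difference as large as that of TFF2, and NOX5 went from 2.47 and 2.29 to 18.4 and 15.1 FPKM. Nearest to TFF1 were OGFR-AS1 (0.054), AC068580.5 (0.09), CFP, the gene of complement properdin (0.108), PI16, a peptidase inhibitor gene (0.124), and C8orf59 (0.135). OGFR-AS1 lies opposite OGFR and AC068580.5 within CTSD, so that reads could have been shared with these more abundant genes. With 2 libraries in each condition, such nearness is mainly a difference of like size and says nothing of function.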

How the data were processed

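RNA-seq of MDA-MB-231 cells (2 vehicle control and 2 MGH-CP1 libraries) was analysed from the FPKM that the authors deposited for 48162 genes with coordinates and gene lengths. Submitters' processing notes name CASAVA 1.8, STAR and hg19; counting tool and annotation release are not given in the sources used here. FPKM had no further scaling between libraries. Genes with mean FPKM of at least 1 (12080) were compared as log2(FPKM + 1) with limma 3.58.1 in R 4.3.3 (two-sided moderated test, variance trend on, prior df 5.97), p-values being adjusted after Benjamini-Hochberg, and 0.05 as the threshold. The log scale understates changes of low genes. An exact permutation test of 2 against 2 libraries cannot go below p = 0.333, so calls rest on variance shared between genes. Recovered fragments gave counting intervals (Clopper-Pearson for ratios, exact Poisson for counts, 95%). The script was tested on simulated data.

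The members and lists were chosen with earlier results of these data known, and written from general knowledge. Named by rule were the 5 nearest genes on each side, tested neighbours within 1 Mb, the 3 called genes of largest change per list plus 11 fixed genes, and the 5 genes nearest in profile; others were chosen after their values were seen. Columns were matched to samples by condition and replicate number.

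Other settings tried were a pseudocount of 0.1, a filter of 5 FPKM or none, scaling by median ratios or quantiles, a block for the replicate number, a flat prior variance, no shared variance, voom on fragments, and each library left out. Rescaling to nuclear genes was added after the data were seen.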

Additional observations from a re-analysis of the deposited data

How the results depend on the processing

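The log2 difference of each trefoil gene stayed above 0 under every setting that gave a value; TFF3, below the filter, had no value with the replicate block, without the trend, without shared variance, in voom or at a mean FPKM of at least 5, and TFF1 none in the last. With a pseudocount of 0.1 it was 2.08 for TFF1, 3.05 for TFF2 and 1.56 for TFF3, voom on recovered fragments gave 2.13 for TFF1 and 3.07 for TFF2, and quantile normalization gave 0.65 for TFF3. Without variance shared between genes, limma called 9 of all genes higher (3273 in the analysis reported) and 4 lower (2869), although 4947 genes had an unadjusted p under 0.05, and called 0 neighbours and 0 list genes in either direction. Without a filter, 24878 genes were tested in place of 12080, with 2280 called higher and 1844 lower. Among the 29 neighbours then tested, 2 were called higher (5 of 13 reported) and 2 lower (4 reported). Of 91 list genes, 19 were called higher (21 of 50 reported) and 5 lower (9 reported). At a mean FPKM of at least 5, only 6 neighbours were tested, with 3 called higher and 1 lower. None of the 67 named genes still tested there changed its call. Quantile normalization called 3 of the 13 tested neighbours higher. With 1 library left out, whose group is then assumed to vary like the other, between 3 and 4 neighbours were called higher. IGFBP4, an estrogen-responsive gene at 0.35 in the analysis reported, reversed to -0.19 under quantile normalization (limma adjusted p = 0.0119); the cause was not tested. For the pairing, samples of the 2 conditions share only a replicate number, with a correlation of deviations of 0.0777 across genes, and the fit with the replicate number as a block called 3466 genes higher and 3052 lower, with ITGB1 and CD44 as added calls among the named genes. Depth limits TFF3 most, with 11 to 31 fragments a library.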

Other observations

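Values of some genes below the filter were of note among those tied to secretory epithelium of stomach and gut. FCGBP, a mucus protein that binds TFF3, had 132 and 145 fragments under vehicle and 207 and 212 after MGH-CP1, which is 0.316 and 0.347 FPKM against 0.702 and 0.736 FPKM. LYZ, the lysozyme gene, had 7 and 10 fragments under vehicle and 33 and 29 after MGH-CP1. VSIG1, a junction protein of gastric epithelium, had 23 and 18 fragments and then 43 and 40. These genes were named after their values were seen and were not tested. They are among 6 of the list's 12 genes below the filter with fragments for which both MGH-CP1 libraries lay above both vehicle control libraries. The MGH-CP1 libraries lay below for 1 gene, CLDN18, and overlapped with the vehicle control libraries for 5. Over all genes below the filter with fragments, 21.6% lay above and 11.2% below. Another 8 genes of the list, MUC2 and CDX2 among them, had no fragment in any library.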
